A study of Mus musculus with 19 samples.

Results

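The cells described here were blood endothelial cells of the mouse hind limb that passed a transcript gate for venular and activated endothelium, in a single-cell RNA-seq study of heterotopic ossification, the formation of bone in soft tissue after injury. A barcode was taken as a cell with at least 500 genes and at most 25% of mitochondrial transcripts, and as blood endothelial with a transcript of at least 3 of the 5 genes Pecam1, Cdh5, Kdr, Egfl7 and Cldn5, at most 1 of Ptprc and of Pdgfra, and none of the lymphatic genes Prox1 and Mmrn1. It entered the gate when its summed transcripts of Plvap, Selp, Ackr1, Lrg1 and Aplnr exceeded those of the capillary genes Gpihbp1, Timp4, Rbp7 and Aqp7. The gate held 1344 of 39541 cells, and 1344 of the 2960 blood endothelial cells. The remaining 1616 are called capillary endothelial cells below.

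Mice received a partial-thickness scald burn of the back and a transection of the Achilles tendon, and the soft tissue of the tenotomy site was dissociated. The 19 libraries fell into 5 groups, with 4 libraries at day 0, 3 at day 3, 4 at day 7, 4 at day 21, and 4 from mice given p7N3, a peptide that activates CD47. The peptide was given daily by intraperitoneal injection at 10 mg/kg, from 3 days before to 3 days after injury and the mice were harvested at day 7. The study set its peptide-treated mice against mice given PBS, but the labels of the day 7 libraries, with which p7N3 is compared here, name no injection. An effect of the injections themselves cannot be told apart from that of the peptide. The labels name C57 and LysmCre/Tgfb1fx/fx mice for the series as a whole and no genotype for a single library. In LysmCre mice the recombinase is driven by a myeloid promoter. The study's methods describe its wild-type animals as young adult male C57BL/6J mice. The study describes its first time point as uninjured tissue, although the labels list the burn for them as well, and the fourth p7N3 library has no harvest day in its labels. The study's reporting notes tie its single-cell replicates to variation between mice, but do not give the number of animals in a library, so the p-values below measure the spread between libraries.

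Postcapillary venules are the main site at which leukocytes leave the blood. Their endothelium stores P-selectin (Selp) and von Willebrand factor (Vwf) in Weibel-Palade bodies, presents chemokines on Ackr1, and after exposure to inflammatory cytokines induces E-selectin (Sele), Icam1 and Vcam1, to which rolling leukocytes attach. Plvap forms the diaphragms of fenestrae and caveolae, Aplnr is the receptor of the angiogenic peptide apelin, and Lrg1 is a secreted protein that modifies TGF beta signalling in vessels.

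Pecam1 and Cdh5, which encode junction proteins of all endothelium, had a transcript in 97.1% to 100% of gated cells of every group, as the choice of cells by these and 3 like genes would give. Of the endothelial genes that the choice did not use, the receptor gene Tie1 stood at 201 to 378 CPM (each gene's transcripts scaled to the same total in every library) and the junction gene Esam at 469 to 950 CPM over the 18 libraries with at least 10 gated cells. The gate sum was carried mainly by Plvap and Lrg1. Plvap gave 54.8% of it at day 0, 36.3% at day 3, 42.8% at day 7, 41.6% at day 21 and 40.9% with p7N3, whereas Selp gave 3.95% to 11.8% and Ackr1 6.06% to 8.00%. A transcript of Selp or Ackr1, the 2 markers most specific to venules, was detected in 698 of the 1344 cells (51.9%), and in 25% to 76.9% of cells by library. Both genes belong to the gate, and a cell without a transcript may still express them, since detection rises with depth (Selp in 41.6% of day 7 cells at full depth and 22.8% after thinning to 2000 transcripts each). The cells are called gated endothelial cells here, after the rule that chose them. At the border, 37 members exceeded the capillary sum by 1 transcript and 29 by 2, and on the other side 33 cells had equal sums above 0, 38 had neither kind of transcript and 40 missed by 1. The median member had a venular sum of 53 and a capillary sum of 4. The 5 venular and 4 capillary genes are given as description only, since they chose the cells.

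In the thinned cells, which do not differ in depth, 63.5% of day 7 cells with Ackr1 also had Selp, against 12.1% of those without it, and at day 21 these shares were 80.0% and 26.7%. Of day 7 cells with Aplnr 21.8% held Ackr1, and of those without it 19.1%, while at day 0, with few cells, these shares were 13.3% and 34.8%. Since cells were chosen by the sum of these genes, which shapes how often they occur together, nothing is read from these shares. Selp was detected in 22.8% of thinned gated cells at day 7 and 45.7% at day 21, and in 0.901% and 0.477% of capillary cells thinned to the same depth, a contrast that the rule itself sets. Its level was 117 to 275 at day 7 with a median of 157, and 595 to 771 at day 21 with a median of 707. Levels between genes are not compared, since each value counts the 3′ ends of captured transcripts.

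Depth differed between groups. The gate held 13, 10, 11 and 8 cells in the day 0 libraries and 23 in each day 3 library. It held between 80 and 169 in a day 7 library, 28 and 119 in a day 21 library, and 100 and 132 in a p7N3 library. Their summed transcripts per library were lowest at day 0 (47130 to 60929 in the 3 libraries with at least 10 cells). Day 3 libraries held between 574688 and 839067. Day 21 libraries held between 346291 and 1382415, day 7 libraries between 1243935 and 2493436, and p7N3 libraries between 1580280 and 1835512. The fourth day 0 library, with 8 cells, was left out of all summed profiles. A gene with no count in the gated cells of day 0 could thus still be present at up to 14.7 CPM, the level at which 3 transcripts over the group would be counted, against 0.451 CPM at day 7. Such limits cover counting error only. Gated cells made up between 0.913% and 1.75% of all cells before injury and between 1.08% and 1.36% at day 3. Their share was higher in the day 7 (2.76% to 5.18%), day 21 (3.09% to 6.08%) and p7N3 libraries (3.42% to 5.22%). Of the blood endothelial cells they were a small part before injury (2.99% to 4.89%) and most of them at day 3 (79.3% to 92.0%), day 7 (76.5% to 87.0%) and after p7N3 (68.5% to 90.4%), with day 21 in between (17.9% to 65.4%). These shares follow from genes that change after injury and are not tested. Of 1342 distinct barcodes among gated cells, 2 occurred in more than 1 library.

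**Figure D1:**
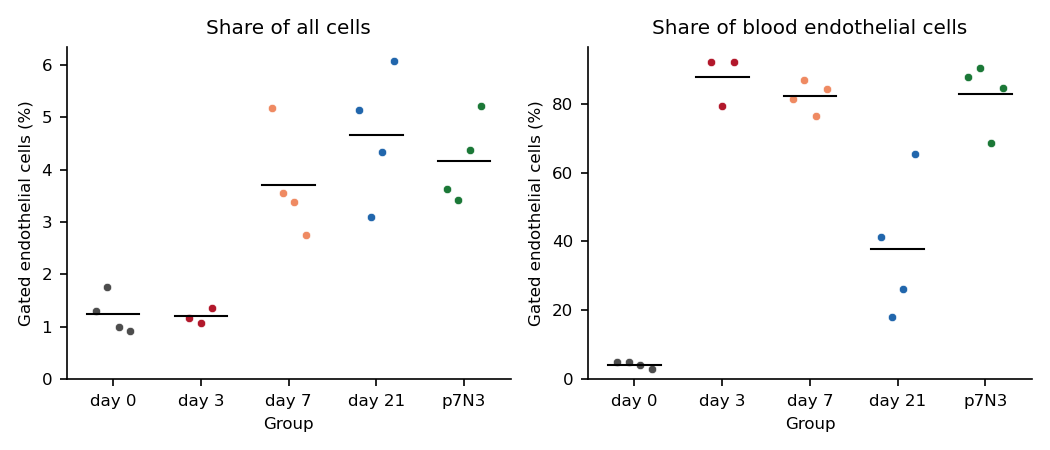
Gated endothelial cells as a percentage of all cells (left) and of blood endothelial cells (right) in each of the 19 libraries, 1 point per library with the group mean as a line. Among blood endothelial cells the day 0 libraries lie at 2.99% to 4.89% and the day 21 libraries spread from 17.9% to 65.4%.

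Transcripts of other cell types were present in the gated cells and differed between groups and libraries. The summed level of 14 macrophage and neutrophil genes was 3922, 3377 and 4930 CPM in the day 3 libraries. It lay between 420 and 974 CPM in day 7 libraries, 501 and 1099 in p7N3 libraries, 129 and 318 in day 21 libraries and 149 and 181 in day 0 libraries, with Lyz2, which encodes lysozyme, the most abundant in every library. In the day 0 libraries 8 to 10 of these 14 genes were at 0. The sum of 10 fibroblast genes reached 29868 CPM in day 21 replicate 2 and 6440 in day 21 replicate 1, against 1350 and 2676 in the other day 21 libraries and 1980 to 2874 at day 7. Its most abundant gene, the collagen gene Col1a1, stood at 10332 CPM in day 21 replicate 2 and 2376 in day 21 replicate 1. At day 0 the fibroblast sum was 373, 3332 and 1888 CPM in replicates 1 to 3 and 977 in the fourth library, and 1115 to 1611 CPM at day 3. The sum of 10 mural genes lay between 222 and 718 CPM in the day 21 libraries, 249 and 424 CPM in those of day 7, and 356 and 1223 CPM in those of day 3. It differed most between the day 0 libraries, at 67.8, 213 and 1634 CPM in replicates 1 to 3 and 2363 CPM in the fourth, and its part in the comparisons with day 0 was not tested. Comparisons that involve day 21 are therefore given with and without its replicates 1 and 2 where this matters.

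Leiden clustering of the gated cells gave 8 clusters. The genes that define clusters and the cluster shares are a description of these cells and carry no test. Cluster 1, with 254 cells, led with Serpinb1a, Glycam1 and Sele and held 1486 CPM of Ackr1 and 785 of Selp. Cluster 5, with 172 cells, led with Zfp36, Fmo2, Rcan1 and Ier3, had the highest Selp of all clusters at 1311 CPM, and a summed level of the 15 immediate early genes of 16926 CPM against 3051 to 9196 in the other clusters. Cluster 2, with 229 cells, was arterial-like by Gja4, Gja5, Sema3g and Hey1, with 5.8 CPM of Ackr1, and the haemoglobin genes Hbb-bt and Hba-a1 were among its leading genes. Cluster 3, with 208 cells, led with Chga, Cxcr4, Kit and Pgf. Cluster 4, with 177 cells, led with the lymphatic chemokine gene Ccl21a, followed by Kcne3, Birc5 and Ube2c, and had the highest sum of cell cycle genes, at 3318 CPM. The lymphatic gene Lyve1 was among its leading genes too, and its sum of 6 lymphatic genes was 322 CPM against 26.4 to 79.4 in the other clusters. Cluster 6, with 107 cells, led with Thrsp, Tcf15, Cd300lg and Fabp4. It had the highest levels of the capillary markers Fabp4 and Cd36, at 12231 and 1190 CPM, followed by cluster 5 at 11060 and 1001 CPM. Its Selp and Ackr1 stood at 37.0 and 64.5 CPM. Cluster 7, with 99 cells, led with pericyte and fibroblast genes such as Rgs5, Col1a1 and Col6a3, and cluster 8, with 98 cells, with the myeloid genes Wfdc17, Lyz2, S100a8 and C1qb. Clusters 3, 4, 6, 7 and 8 are left without a cell type name. The median cell of clusters 7 and 8 had 14387 and 17453 transcripts, against 6716 to 14655 in the others, and the part of doublets in these clusters was not tested.

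The clusters took different shares of the libraries. Cluster 5 made up 40.5% ± 3.01 (SD, n = 4) of gated cells at day 21, 4.45% ± 3.36 (n = 4) at day 7, 5.33% ± 2.20 (n = 4) with p7N3 and 45.8% ± 25.8 (n = 3) at day 0, where each library holds few cells. It was absent from day 3, at which cluster 8 took 21, 19 and 21 of the 23 cells in each library. Cluster 1 was present at 21.6% ± 5.46 at day 7, 18.8% ± 4.28 at day 21 and 19.4% ± 0.987 with p7N3 (n = 4 each). Clusters 2, 3 and 4 together formed the larger part of day 7 and p7N3 libraries. Cluster 6 made up 27.3% ± 10.8 (n = 3) at day 0. Its share was 9.63% ± 2.08 at day 7, 9.56% ± 2.58 at day 21 and 5.54% ± 2.28 with p7N3 (n = 4 each). The part of this cluster in the comparisons with day 0 was not tested. Cluster 4 stood at 13.3% ± 2.51 at day 7, 21.4% ± 3.93 with p7N3 and 2.79% ± 2.12 at day 21 (n = 4 each). The sum of lymphatic genes over all gated cells was 163, 283, 55.9 and 48.7 CPM with p7N3 and 35.3 to 104 CPM at day 7, and its part in the share of cluster 4 was not tested.

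**Figure D2:**
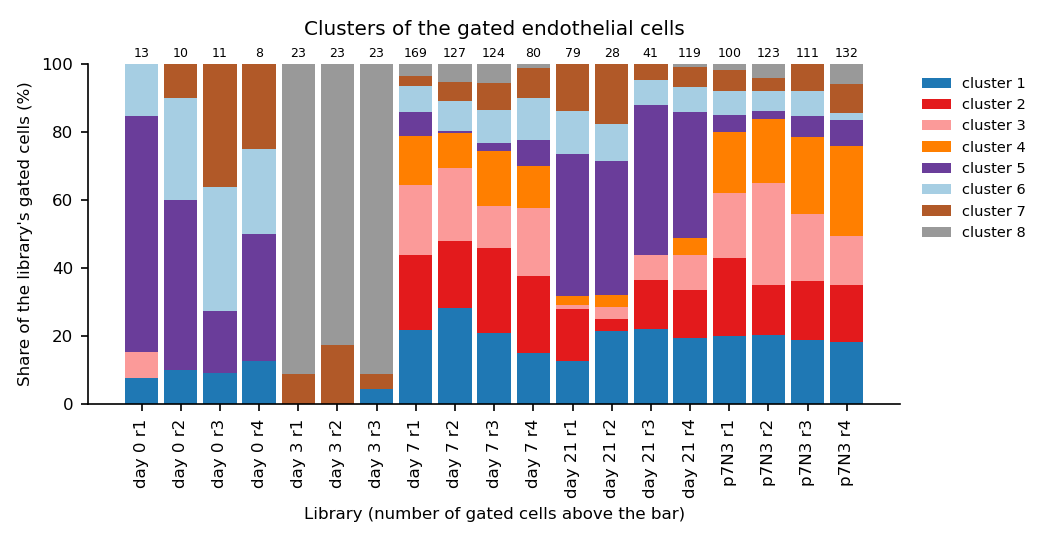
Share of each library's gated endothelial cells in each of the 8 clusters, as stacked bars that add up to 100%, with the number of gated cells above each bar (r1 to r4 are replicates). Cluster 5 (purple) is broad in the day 0 and day 21 libraries and narrow at day 7 and with p7N3, and cluster 8 (grey) fills the day 3 libraries.

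The comparison of day 21 with day 7 asked how the gated endothelium of the later wound differed from that of the first week. In gated cells summed per library, edgeR's quasi-likelihood test called 1420 of 9695 genes (14.6%) at an adjusted p under 0.05, of which 743 were higher (7.66%) and 677 lower (6.98%) at day 21. The immediate early genes moved together. They are the transcription factors and mRNA decay factors that cells switch on within minutes of a stimulus. Of 15 measured members 11 rose and none fell, with a median log2 fold change of 1.10 against 0.01 over all genes. Genes of NF-kB feedback and the acute phase response rose in 7 of 19 cases with none lower (median 0.68), cytokine receptors rose in 7 and fell in 1 of 18 (0.33), and cell cycle genes fell in 7 of 23 with none higher (−1.13). The total was 910 genes without day 7 replicate 2 and 921 without day 21 replicate 1.

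Among the immediate early genes, Zfp36 encodes tristetraprolin, which destroys cytokine mRNAs. It stood at 251, 130, 244 and 200 CPM in the day 7 libraries and at 1193, 1147, 855 and 954 CPM at day 21. The groups were far apart, and the log2 fold change was 2.33 (SE 0.36, edgeR adjusted p = 0.000918). Nr4a1, an orphan nuclear receptor, rose from 45.4 to 108 CPM at day 7 to 229 to 374 CPM at day 21 (log2 fold change 1.95, SE 0.46, edgeR adjusted p = 0.0134). The stress-induced transcription factor Atf3 (1.91, SE 0.33, edgeR adjusted p = 0.00204) and Ier3 (1.88, SE 0.34, edgeR adjusted p = 0.00252) rose as well, also with no overlap between the groups.

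Irf1, a transcription factor induced by interferons and by NF-kB, was at 55.6, 39.6, 63.1 and 65.3 CPM at day 7 and at 160, 202, 181 and 156 CPM at day 21. Every day 21 library lay above every day 7 library (log2 fold change 1.63, SE 0.25, edgeR adjusted p = 0.000458). Nfkbiz, a nuclear cofactor of NF-kB, rose by 1.25 on the log2 scale (SE 0.26, edgeR adjusted p = 0.00471) and the kinase gene Map3k8 by 1.19 (SE 0.21, edgeR adjusted p = 0.000225). Lcn2, which encodes an iron-scavenging acute phase protein, rose by 1.87 (SE 0.61, edgeR adjusted p = 0.0355) from 1.52 to 2.48 CPM to 3.08 to 13.7 CPM, on 12 and 21 transcripts.

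The sequences upstream of 2 of these genes are shown because each holds a motif of the factors that are textbook regulators of its list. They are the 250 bases before the annotated start in RefSeq (GRCm38.p6), 5′ to 3′ on the gene's strand, with the motif in capitals. That of Zfp36 (chr7:28379229-28379478, minus strand) has a CArG box, the site of serum response factor, that begins 58 bases before the start. That of Irf1 (chr11:53769764-53770013, plus strand) has an NF-kB consensus that begins 13 bases before the start.
Zfp36: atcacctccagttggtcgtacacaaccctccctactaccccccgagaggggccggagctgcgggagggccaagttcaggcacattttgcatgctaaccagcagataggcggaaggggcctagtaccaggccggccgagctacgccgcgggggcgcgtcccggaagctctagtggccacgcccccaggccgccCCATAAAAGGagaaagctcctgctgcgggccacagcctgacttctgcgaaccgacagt
Irf1: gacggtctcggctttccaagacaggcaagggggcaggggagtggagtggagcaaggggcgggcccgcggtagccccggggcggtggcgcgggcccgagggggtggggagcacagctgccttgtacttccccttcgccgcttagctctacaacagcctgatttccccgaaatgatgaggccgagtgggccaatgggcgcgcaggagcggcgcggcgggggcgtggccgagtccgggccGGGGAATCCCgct
Both strands were searched for the NF-kB consensus, the CArG box, the AP-1 site TGANTCA and the cyclic AMP response element TGACGTCA, and hits of different motifs may share bases. The windows of 1 chromosome were left out before the search. Over the remaining 32851 windows of 27025 genes, the shares that held the motifs were 5.0%, 1.47%, 6.75% and 1.55%. Of the 11 immediate early genes higher at day 21, 9 had a window among these, and Egr1 and Ier2 had none. An NF-kB consensus was in 1 (Fos), a CArG box in 1 (Zfp36), a cyclic AMP response element in 1 (Btg2) and an AP-1 site in none. Of the NF-kB and acute phase genes higher at day 21, 4 had 5 windows, of which 1 (Irf1) held an NF-kB consensus. A match here is a description of the letters, and no binding was measured. Icam1 (chr9:21015690-21015939, plus strand) held none of the 4 motifs in its window.

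Genes through which leukocytes adhere rose in 4 of 18 cases and none fell (median 0.22). Icam1, the ligand of leukocyte integrins, stood at 174, 105, 180 and 136 CPM at day 7 and at 389, 578, 482 and 426 CPM at day 21, with no overlap (log2 fold change 1.64, SE 0.26, edgeR adjusted p = 0.000991). Vcam1 was at 59.3, 39.6, 110 and 34.7 CPM at day 7 and at 178, 193, 200 and 154 CPM at day 21 (1.56, SE 0.39, edgeR adjusted p = 0.0163). Its call was lost without day 7 replicate 2 (1.39, edgeR adjusted p = 0.0554) and with the gate applied to thinned cells (1.04, edgeR adjusted p = 0.17). The junction gene Jam2 (0.73, SE 0.14, edgeR adjusted p = 0.000582) and Podxl, a sialomucin (0.73, SE 0.20, edgeR adjusted p = 0.0199), completed the 4. Sele did not pass, although the groups did not overlap, with 65.5, 47.2, 55.5 and 31.4 CPM at day 7 and 119, 91.6, 74.2 and 137 CPM at day 21 (1.11, SE 0.36, edgeR adjusted p = 0.0549).

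Weibel-Palade, clotting and vasoactive genes rose in 5 of 19 cases and fell in 1 (median 0.45). Vwf was at 197, 202, 173 and 112 CPM at day 7 and at 355, 566, 631 and 405 CPM at day 21, again with separate groups (1.49, SE 0.30, edgeR adjusted p = 0.00502). Thbd, thrombomodulin, which turns thrombin into an anticoagulant, rose by 0.97 (SE 0.15, edgeR adjusted p = 3.46e-05), and Ptgs1, the constitutive cyclooxygenase, by 1.25 (SE 0.21, edgeR adjusted p = 0.000243).

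The cytokine receptors that rose included 3 chains of 1 receptor family. Il6st, or gp130, the signal chain shared by the interleukin-6 family, was at 290, 242, 234 and 193 CPM at day 7 and 624, 806, 571 and 613 CPM at day 21. No library of one group came near the other (log2 fold change 1.44, SE 0.15, edgeR adjusted p = 1.09e-06). Its partners Osmr, for oncostatin M (1.45, SE 0.18, edgeR adjusted p = 2.33e-06), and Lifr, for leukaemia inhibitory factor (1.24, SE 0.19, edgeR adjusted p = 5.04e-05), rose by similar amounts. Il4ra rose by 0.68 (SE 0.18, edgeR adjusted p = 0.0103). Chemokine and cytokine genes rose in 3 and fell in 1 of 18 cases. Csf3, granulocyte colony-stimulating factor, stood at 18.7, 3.49, 14.4 and 46.3 CPM at day 7 and at 99.8, 75.8, 51.5 and 84.0 CPM at day 21, so that the highest day 7 library was near the lowest at day 21 (2.03, SE 0.48, edgeR adjusted p = 0.0129). The chemokine scavenger gene Ackr3 rose by 1.35 (SE 0.21, edgeR adjusted p = 9.4e-05). Il6 itself did not pass (1.40, SE 0.46, edgeR adjusted p = 0.0589), with 35.5 to 144 CPM at day 7 overlapping 130 to 365 at day 21. The neutrophil chemokine gene Cxcl2 fell by 2.11 (SE 0.39, edgeR adjusted p = 0.00309), a call that was lost without clusters 7 and 8 (−1.50, edgeR adjusted p = 0.168).

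Flow-responsive genes, whose level in endothelium depends on blood flow, rose in 5 of 11 cases and none fell (median 0.37). Klf4 rose by 1.10 (SE 0.22, edgeR adjusted p = 0.00366) and Txnip, an inhibitor of thioredoxin, by 0.91 (SE 0.20, edgeR adjusted p = 0.00521), while Klf2, the other main flow-induced Kruppel-like factor, differed by 0.37 (SE 0.15, edgeR adjusted p = 0.0991). Of 22 endothelial identity genes 6 rose and 1 fell. Ptprb, the phosphatase that restrains the angiopoietin receptor Tek, was at 251, 211, 233 and 194 CPM at day 7 and at 487, 464, 647 and 541 CPM at day 21, well apart (1.26, SE 0.13, edgeR adjusted p = 2.65e-07). Capillary and fatty acid genes rose in 4 of 15 cases with none lower. Fabp4, a fatty acid carrier, rose by 0.92 (SE 0.15, edgeR adjusted p = 0.000684).

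In the TGF beta and BMP pathway, of interest in a model of ectopic bone, 6 of 23 measured genes rose and 2 fell (median 0.19). Ltbp4, which tethers latent TGF beta to the matrix, was at 263, 180, 270 and 232 CPM at day 7 and at 737, 581, 923 and 691 CPM at day 21, with a wide gap (1.63, SE 0.18, edgeR adjusted p = 4.18e-06). Bmp4 rose from 16.5 to 31.4 CPM to 47.3 to 66.3 CPM (1.07, SE 0.21, edgeR adjusted p = 0.000991). Bmp2 moved the other way, from 15.2 to 36.7 CPM to 3.16 to 12.6 CPM, and fell by 1.49 (SE 0.39, edgeR adjusted p = 0.0131). Basement membrane genes split, with 3 of 17 higher and 2 lower. Lamb2, a laminin chain of mature vessels, rose by 1.13 (SE 0.18, edgeR adjusted p = 5.33e-05), and the collagen genes Col18a1 (fell by 0.85, SE 0.20, edgeR adjusted p = 0.00931) and Col4a1 (fell by 0.68, SE 0.20, edgeR adjusted p = 0.0325) were lower. The call of Col4a1 was lost under 11 of the alternatives run.

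The remaining lists are given by their counts, to be read against the 7.66% of all genes that were higher and the 6.98% lower. The counts of the tip cell, mesenchymal transition and interferon-stimulated lists are near or under these shares, and nothing is read from them. Venous identity genes rose in 3 of 11 cases, antigen presentation genes rose in 3 and fell in 4 of 13, and mesenchymal transition genes rose in 1 of 10. Notch pathway genes rose in 3 of 12 cases, among them the ligand gene Dll1 (0.78, SE 0.24, edgeR adjusted p = 0.0262) and the target gene Hes1 (1.13, SE 0.33, edgeR adjusted p = 0.0334). Hypoxia and glycolysis genes rose in 3 and fell in 3 of 19, with Ndrg1 (1.13, SE 0.14, edgeR adjusted p = 2.76e-06) and Pfkfb3 (1.24, SE 0.25, edgeR adjusted p = 0.000993) higher. Tip cell genes rose in 2 and fell in 2 of 24, and Esm1, a tip cell marker, varied so much (33.2 to 130 CPM at day 7, 2.10 to 28.9 CPM at day 21) that its log2 fold change of −2.63 did not pass (SE 0.88, edgeR adjusted p = 0.0616). Interferon-stimulated genes fell in 1 and rose in 0 of 20, and no gene of the arterial list (16), the mural list (9) or the CD47 and thrombospondin list (5) was called.

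Of the cell cycle genes, Rrm2, which makes deoxynucleotides for DNA synthesis, fell by 2.59 (SE 0.41, edgeR adjusted p = 0.000289), and Ccnb2, a mitotic cyclin, fell by 1.79 (SE 0.32, edgeR adjusted p = 0.00155). Birc5, survivin, was at 82.6, 74.0, 92.0 and 76.9 CPM at day 7 and at 38.9, 19.0, 8.24 and 24.7 CPM at day 21, so that it fell by 1.69 (SE 0.36, edgeR adjusted p = 0.00708) with no overlap. Mki67 did not differ by the test (−0.31, SE 0.41, edgeR adjusted p = 0.682). Outside the lists, Fmo2, a flavin monooxygenase, had one of the largest rises, from 0.582 to 6.84 CPM to 40.1 to 72.7 CPM (3.91, SE 0.41, edgeR adjusted p = 1.5e-06). Mest, an imprinted gene, was among the largest falls, from 476, 641, 495 and 868 CPM to 83.0, 47.4, 82.4 and 87.8 CPM (−2.98, SE 0.35, edgeR adjusted p = 0.000114). Chga, chromogranin A, fell by 3.22 (SE 0.77, edgeR adjusted p = 0.0172).

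**Figure D3:**
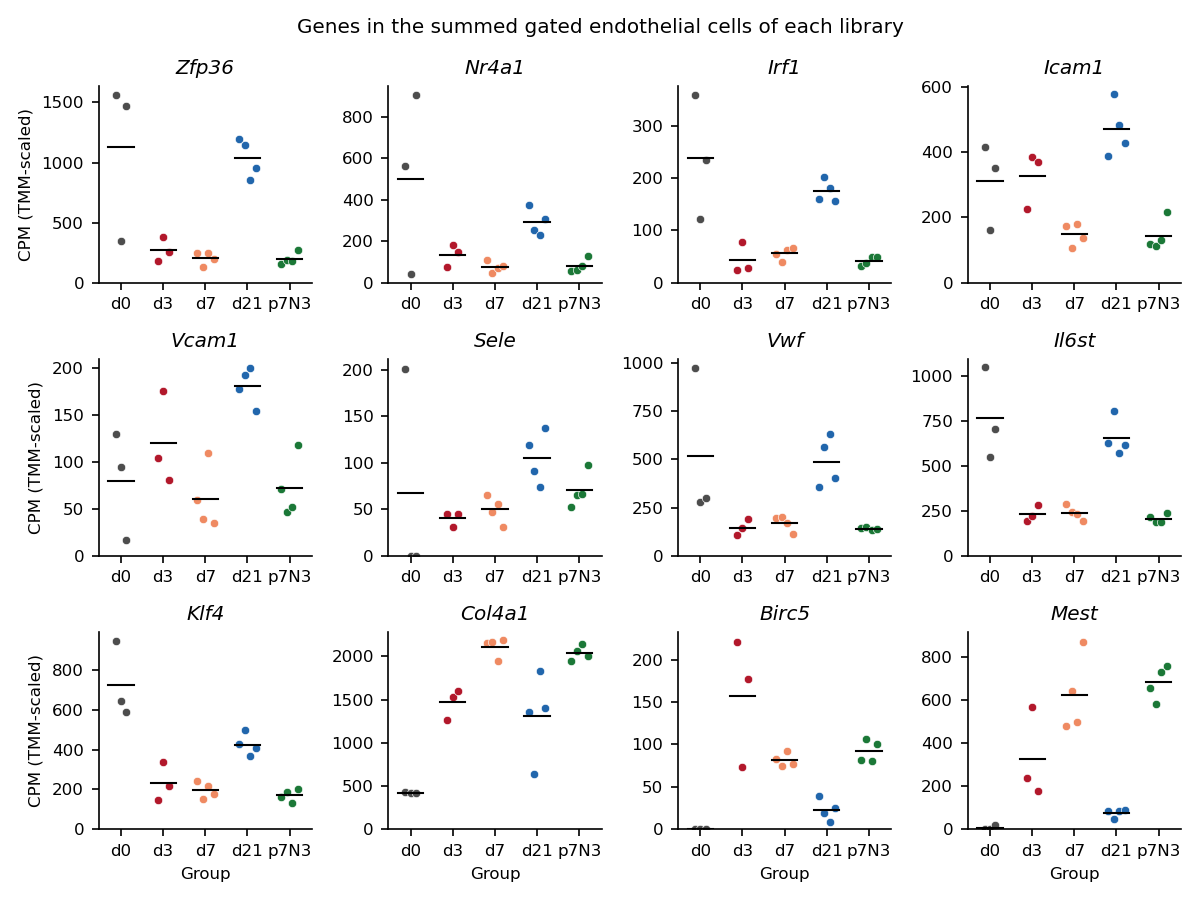
Levels of 12 genes in the summed gated endothelial cells of each library, in TMM-scaled CPM on linear axes from 0, 1 point per library and the group mean as a line (d0, n = 3; d3, n = 3; d7, d21 and p7N3, n = 4 each). Zfp36, Irf1, Icam1, Vwf and Il6st separate day 21 from day 7 and from p7N3, and Mest and Birc5 are lowest at day 21 among the injured groups.

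Some of the called genes are markers of other cell types, and the source of their transcripts was not tested. Of the 14 macrophage and neutrophil genes 8 fell and none rose (median −1.94), as did Il1b (fell by 4.04, SE 0.62, edgeR adjusted p = 0.000774) and Clec4e, which had 72 transcripts at day 7 and none at day 21 and was at least 11.3-fold lower. The class II genes Cd74 (fell by 1.73, SE 0.41, edgeR adjusted p = 0.0131) and H2-Aa (fell by 1.38, SE 0.33, edgeR adjusted p = 0.0103) stood at −1.04 and −0.78 without clusters 7 and 8 and were no longer called (edgeR adjusted p = 0.145 and 0.104, in a setting chosen after seeing the data). Of 10 fibroblast genes 3 rose (median 1.91), and the matrix genes Comp, at 225 and 559 CPM in day 21 replicates 1 and 2 against 14.4 and 20.03 in replicates 3 and 4, and Fmod rose by 4.96 and 4.59 (SE 1.02 and 0.94, edgeR adjusted p = 0.00574 and 0.00566). Without day 21 replicates 1 and 2 no fibroblast gene was called and their median was −0.19. Of the remaining marker lists, lymphatic genes rose in 1 and fell in 1 of 5 cases, both Schwann genes rose, and no muscle (6) or platelet and erythrocyte gene (6) was called. H2-Q7, which has near-identical copies and whose counts are therefore uncertain, rose by 1.3 (SE 0.26, edgeR adjusted p = 0.00129).

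The immediate early difference was present in each smaller set of cells tried. These 3 settings were chosen after seeing the data. Without day 21 replicates 1 and 2, edgeR called 716 genes, of which 424 were higher (4.07%), and 6 of 15 immediate early genes rose with none lower (median 1.13). Without the cells of clusters 7 and 8, 912 genes were higher (8.62%), among them 12 of 15 immediate early genes (median 1.20), 9 of 18 NF-kB genes and 7 of 18 leukocyte adhesion genes. In cells with a transcript of Selp or Ackr1 alone, 473 genes were higher (5%) and 470 lower (4.97%). Of the lists, 12 of 15 immediate early genes (median 1.11), 6 of 19 NF-kB genes and 4 of 18 adhesion genes rose and 2 of 24 cell cycle genes fell (median −0.60). The calls of Rrm2, Ccnb2 and Birc5 were lost there (−2.28, −1.16 and −0.85, edgeR adjusted p = 0.173, 0.276 and 0.455). Immediate early genes are also known to respond to tissue dissociation, and the share of cluster 5, defined by these genes, moved with them. The part of the dissociation in the rise was not tested.

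**Figure D4:**
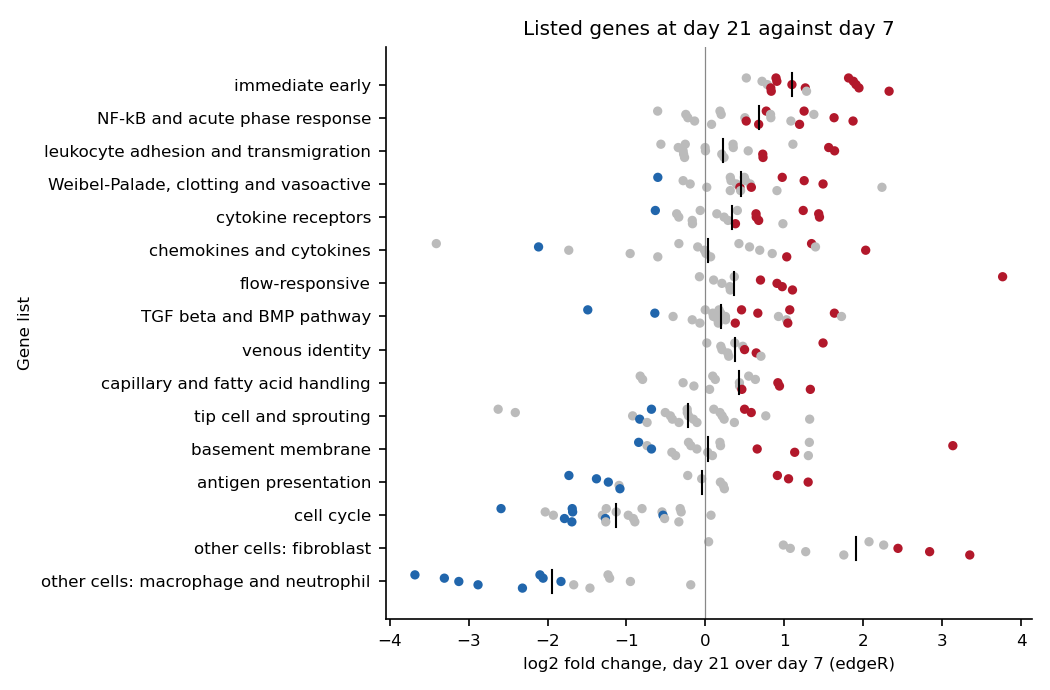
log2 fold change of each measured gene of 16 lists at day 21 over day 7 in gated endothelial cells, by edgeR. Red points rose and blue points fell at an adjusted p under 0.05, grey points did not pass, and the black bar is the list's median, which is 1.10 for immediate early genes and −1.13 for cell cycle genes.

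Comparisons with the uninjured state shared the same 3 day 0 libraries, which together held 34 gated cells. Their p-values rest on a spread estimated over the libraries of all 5 groups. The day 0 libraries were less alike than the others. The mean correlation of a library with the rest of its group was 0.705 to 0.719 at day 0 and 0.904 to 0.979 in the other groups. edgeR called 1628 genes (16.8%) at day 3, 1182 higher (12.2%) and 446 lower (4.6%). It called 1290 (13.3%) at day 7, 947 higher (9.77%) and 343 lower (3.54%), and 514 (5.3%) at day 21, 449 higher (4.63%) and 65 lower (0.67%). Without day 0 replicate 3 the totals at days 7 and 21 were 814 and 275, and without day 0 replicate 2 that at day 21 was 318. This balance depended on the scaling. With RLE factors the split was 882 higher and 572 lower at day 3, 552 and 455 at day 7, and 180 and 108 at day 21, and with DESeq2 670 and 714, 392 and 668, and 177 and 181. The median log2 fold change of all genes was 0.36, 0.38 and 0.39 with TMM and 0.19, 0.16 and 0.14 with RLE factors, and the values below are to be read against it. On simulated counts of this depth, 9.5%, 11% and 15% of genes with a 2-fold change were called at days 3, 7 and 21, so that a gene not called here may still differ. Of the 22, 24 and 38 calls in those simulations 13.6%, 8.33% and 21.1% were false. These shares rest on few calls, and the simulations changed 200 of 9695 genes, fewer than were called here. The share of false calls against day 0 therefore cannot be read from them, and it may be above the threshold of 0.05.

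Of 11 flow-responsive genes 4, 4 and 2 fell at days 3, 7 and 21, none rose and the others did not pass. The endothelial identity genes went both ways, with 3, 6 and 5 of 22 higher and 4, 3 and 2 lower, and 3 of 22 at day 3 is near the share of all genes (12.2% higher). Weibel-Palade, clotting and vasoactive genes were higher in 2, 2 and 3 and lower in 2, 3 and 1 of 19 cases, and the 2 higher at days 3 and 7 are near the shares of all genes (12.2% and 9.77%). Of the identity genes, Ptprb was at 1034, 899 and 653 CPM at day 0, at 147, 195 and 217 CPM at day 3 and at 251, 211, 233 and 194 CPM at day 7. The libraries of days 3 and 7 lay far below those of day 0, and Ptprb fell by 2.23 at day 3, 1.96 at day 7 and 0.69 at day 21 (SE 0.18, 0.16 and 0.16, edgeR adjusted p = 1.59e-10, 4.38e-10 and 0.00638). Of the flow-responsive genes, Klf2, at 1494, 940 and 1742 CPM at day 0, fell by 1.69 at day 3 and 1.04 at day 7 (SE 0.19 and 0.17, edgeR adjusted p = 4.76e-07 and 0.000122). Thbd, in both the flow-responsive and the Weibel-Palade list, fell by 1.70 and 1.92 (SE 0.21 and 0.20, edgeR adjusted p = 4.29e-07 and 2.67e-08). Vwf, at 977, 282 and 302 CPM at day 0, fell by 1.85 and 1.61 (SE 0.44 and 0.40, edgeR adjusted p = 0.00954 and 0.0153), and this rested on day 0 replicate 1, without which it stood at −0.96 and −0.72 (edgeR adjusted p = 0.138 and 0.279).

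Immediate early genes, whose level at day 21 was described above, were lower than at day 0 in 8 of 15 cases at day 3 and 10 of 15 at day 7, and in none at day 21. Their median log2 fold changes were −1.59, −1.16 and −0.15. Zfp36 was at 1565, 349 and 1474 CPM at day 0, so that 1 of the 3 libraries was close to those of day 7, and fell by 2.44 at day 7 (SE 0.42, edgeR adjusted p = 0.00128). Irf1 (359, 121 and 235 CPM at day 0) fell by 2.52 at day 3 and 2.09 at day 7 (SE 0.46 and 0.41, edgeR adjusted p = 0.000855 and 0.00197), and its day 0 level rests on 48 transcripts. The receptor chains Il6st, Lifr and Osmr fell by 1.67, 2.19 and 2.03 at day 7 (SE 0.19, 0.31 and 0.33, edgeR adjusted p = 5.22e-07, 5.32e-06 and 3.95e-05). Without the cells of clusters 7 and 8 a single day 0 library was left, which is assumed to vary like the other groups, and 3 of 15 immediate early genes were lower at day 7, against 1.4% of all genes.

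Of 17 basement membrane genes 5, 7 and 8 rose at days 3, 7 and 21, and 2, 1 and 0 fell. At day 21 the sum of fibroblast genes was higher too, at 10934 CPM against 1510 at day 0, with the highest values in day 21 replicates 1 and 2. Without those replicates 9 of the 17 rose (against 4.75% of all genes) and none fell. Of 10 fibroblast genes 0 rose and 1 fell, both with all libraries, where their median was 2.11, and without those replicates. The part of fibroblast transcripts in the rise was not tested. Col4a1, a chain of type IV collagen, was at 431, 416 and 419 CPM at day 0 and at 1945 to 2190 CPM at day 7, far above (log2 fold change 2.33, SE 0.28, edgeR adjusted p = 2.88e-05). Col18a1, the collagen from which endostatin is cleaved, rose by 3.56 at day 7 (SE 0.39, edgeR adjusted p = 5.44e-06) from 14 transcripts at day 0. The cytoskeletal gene Vim rose by 1.69, 2.30 and 2.46 at days 3, 7 and 21 (SE 0.22 each, edgeR adjusted p = 3.72e-05, 1.44e-06 and 3.69e-06). Hypoxia and glycolysis genes went both ways, with 8, 6 and 7 of 19 higher and 4, 4 and 1 lower at days 3, 7 and 21. Pkm, pyruvate kinase, was at 215, 242 and 134 CPM at day 0 and at 1029, 974 and 1157 CPM at day 3, with no overlap (2.40, SE 0.18, edgeR adjusted p = 5.27e-11). The glucose transporter gene Slc2a1 fell at day 7 by 2.24 (SE 0.45, edgeR adjusted p = 0.000801), which rested on day 0 replicate 2, at 215 CPM against 50.3 and 57.4 in the others (−1.20, edgeR adjusted p = 0.263, without it).

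Some genes had no transcript in the day 0 cells. Il3ra, the interleukin-3 receptor chain, was at least 3.79-fold higher at day 3, 4.39-fold at day 7 and 4.81-fold at day 21, and Birc5 was at least 10.7-fold higher at day 3 and 5.53-fold at day 7. Of 23 cell cycle genes 17 had no transcript at day 0, so that most could enter the test only through the injured groups, and the 9 called higher at day 3, 5 at day 7 and 0 at day 21 are given as a description. With genes at 0 set to these bounds the list's median was 2.18, 1.31 and −0.05 at days 3, 7 and 21, against 0.21, 0.21 and 0.24 over all genes. Of 14 macrophage and neutrophil genes 5 were without transcripts at day 0 and entered the test in the same way, so that the 11 called higher at day 3 are a description too, beside Il1b (at least 15.2-fold) and Wfdc17 (at least 30.2-fold), in cells that fell largely into cluster 8. The part of these transcripts in the other day 3 differences was not tested. In the opposite direction, Zbtb16, a transcription factor induced by glucocorticoids, was at 86.2, 40.3 and 67.0 CPM at day 0 and had 1 transcript at day 3 and 3 at day 7 (log2 fold change −6.63 and −6.83, SE 1.12 and 0.95, edgeR adjusted p = 6.78e-05 and 5.62e-06).

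Proliferation was also read per cell, as the share of cells with at least 2 transcripts of the cell cycle list after thinning to 2000 transcripts. It was 73.9%, 43.5% and 34.8% in the day 3 libraries and 23.7%, 28.3%, 37.1% and 33.8% at day 7. At day 21 it was 19.0%, 10.7%, 9.76% and 21.0%, and with p7N3 31%, 37.4%, 36.9% and 40.9%. In the 2 day 0 libraries with enough cells it was 9.09% (1 of 11 cells, replicate 1) and 0% (0 of 10, replicate 3). The day 0 libraries left out for too few cells had more such cells, with 2 of 9 in replicate 2 and 2 of 8 in replicate 4. The low day 0 share thus depends on which libraries were kept. The day 7 and day 21 ranges did not overlap, a difference that was not tested. Exact two-sided permutation tests gave p = 0.1, 0.0667 and 0.133 for days 3, 7 and 21 against day 0 and 0.171 for p7N3 against day 7, all 0.171 after Benjamini-Hochberg adjustment over the 4 comparisons. The first 2 are the smallest p these group sizes allow. Unthinned, the shares were 32.2% at day 0, 95.7% at day 3, 79.5% at day 7, 69.6% at day 21 and 82.1% with p7N3.

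The p7N3 comparison asked whether gated endothelium differed at day 7 after treatment with the CD47-activating peptide, and shares its day 7 libraries with the comparison of day 21. edgeR called 0 of 9695 genes (0%), with 498 at an unadjusted p under 0.05, and DESeq2 called 1. On simulated counts with 4 libraries a group, 57.5% of 2-fold changes were recovered. Cd47, the target, was at 427, 418, 408 and 378 CPM at day 7 and at 372, 399, 423 and 410 CPM with p7N3, so that the groups overlapped (−0.02, SE 0.11, edgeR adjusted p = 1).

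No member of any list was called. The medians of the leukocyte adhesion, Weibel-Palade and immediate early lists were −0.04, −0.02 and −0.05, against −0.00 over all genes. Among the marker lists of other cells the median was −2.16 for platelet and erythrocyte, 0.51 for lymphatic and −0.38 for fibroblast genes. For the macrophage and neutrophil, mural, muscle and Schwann lists it lay between −0.13 and 0.28.

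Angpt2 encodes angiopoietin-2, a Weibel-Palade protein that destabilises vessels. It was at 42.3, 55.9, 44.9 and 87.7 CPM at day 7 and at 104, 126, 146 and 106 CPM with p7N3. The ranges did not overlap, and day 7 replicate 4 lay closest to the treated libraries (log2 fold change 1.09, SE 0.23, unadjusted p = 0.000137, edgeR adjusted p = 0.665). Over the alternatives run the edgeR or DESeq2 adjusted p of Angpt2 ranged from 0.00267, without day 7 replicate 4, to 1. Sele, at 52.2 to 97.8 CPM with p7N3, differed by 0.48 (SE 0.35, edgeR adjusted p = 0.993) and Vwf by −0.28 (SE 0.30, edgeR adjusted p = 0.996).

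Whether the response of gated cells differed from that of capillary cells of the same libraries was tested as an interaction, with the library as a block. From day 7 to day 21, a comparison added after seeing the data, 139 of 9897 genes (1.4%) differed, 76 with a higher (0.768%) and 63 with a lower response (0.637%) in gated cells. With RLE factors there were 144, 94 higher and 50 lower, and without day 21 replicates 1 and 2 there were 20. Leaving out 1 library gave 59 without day 7 replicate 2, 79 without day 7 replicate 4, 66, 64 and 74 without day 21 replicates 1, 2 and 3, and 113 to 201 otherwise. Vcam1 went from a mean of 61.4 to 182 CPM in gated cells and from 30.9 to 21.6 CPM in capillary cells (interaction 2.03, SE 0.46, edgeR adjusted p = 0.0187). Icam1 (151 to 472 CPM against 81.5 to 62.2 CPM) stood at 1.96 (SE 0.45, edgeR adjusted p = 0.0497), just past the threshold and lost under 12 of the alternatives run. Nfkbiz rose in gated cells from 135 to 319 CPM and went from 152 to 94.9 CPM in capillary cells (1.92, SE 0.33, edgeR adjusted p = 0.00346). Il6st (1.06, edgeR adjusted p = 0.0126) and Irf1 (1.06, edgeR adjusted p = 0.0295) also rose more in gated cells, while Zfp36 (1.34, edgeR adjusted p = 0.0583) and Vwf (1.15, edgeR adjusted p = 0.152) did not pass.

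The opposite pattern held for Id1 and Id3, targets of BMP signalling. Id1 went from 326 to 392 CPM in gated cells and from 303 to 985 CPM in capillary cells (−1.48, SE 0.23, edgeR adjusted p = 0.00171), and Id3 from 628 to 751 and from 552 to 1678 CPM (−1.38, SE 0.28, edgeR adjusted p = 0.0284). The caveolin genes Cav1 and Cav2 also had a lower response in gated cells, with Cav1 at 1423 and 1166 CPM in gated cells and 1491 and 2566 CPM in capillary cells (−1.12, SE 0.19, edgeR adjusted p = 0.00346) and Cav2 at −1.05 (SE 0.20, edgeR adjusted p = 0.00251). By list, 4 of 24 TGF beta and BMP genes and 6 of 22 endothelial identity genes had a lower response in gated cells and none a higher one, and 3 of the adhesion genes had a higher and 2 a lower one.

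From day 0 to day 7 the interaction was called for 294 genes (2.97%), 233 higher (2.35%) and 61 lower (0.616%) in gated cells. This balance reversed with RLE factors, at 143 genes with 38 higher and 105 lower, and the median of all genes moved from 0.42 to 0.06. Leaving out any 1 of the 7 libraries lowered the number, to between 99 (without day 0 replicate 3) and 188 (without day 7 replicate 2). Immediate early genes had a lower response in 9 of 15 cases and NF-kB genes in 5 of 18, with none higher. Zfp36 went from 1148 to 208 CPM in gated cells and from 286 to 300 CPM in capillary cells (−2.38, SE 0.37, edgeR adjusted p = 0.00301). Nfkbiz (−2.49), Ier3 (−2.09), Atf3 (−2.05) and Irf1 (−1.55) were alike (edgeR adjusted p = 0.00203, 0.0378, 0.0163 and 0.00528). Eng, a TGF beta co-receptor, rose from 490 to 687 CPM in gated cells and went from 839 to 292 CPM in capillary cells (2.03), Cav1 stood at 1.51, and Col4a1 rose from 429 to 2134 CPM against 1220 to 1651 CPM (1.91, edgeR adjusted p = 0.0202). For p7N3 against day 7 the interaction was called for 1 gene (0.0101%), and for day 21 against day 0 for 47 (0.475%), 43 higher (0.434%) and 4 lower (0.0404%), or with RLE factors for 15, of which 8 were higher. Without day 0 replicates 1, 2 and 3 in turn the latter count was 24, 25 and 20, and without day 21 replicate 1 it was 20.

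**Figure D5:**
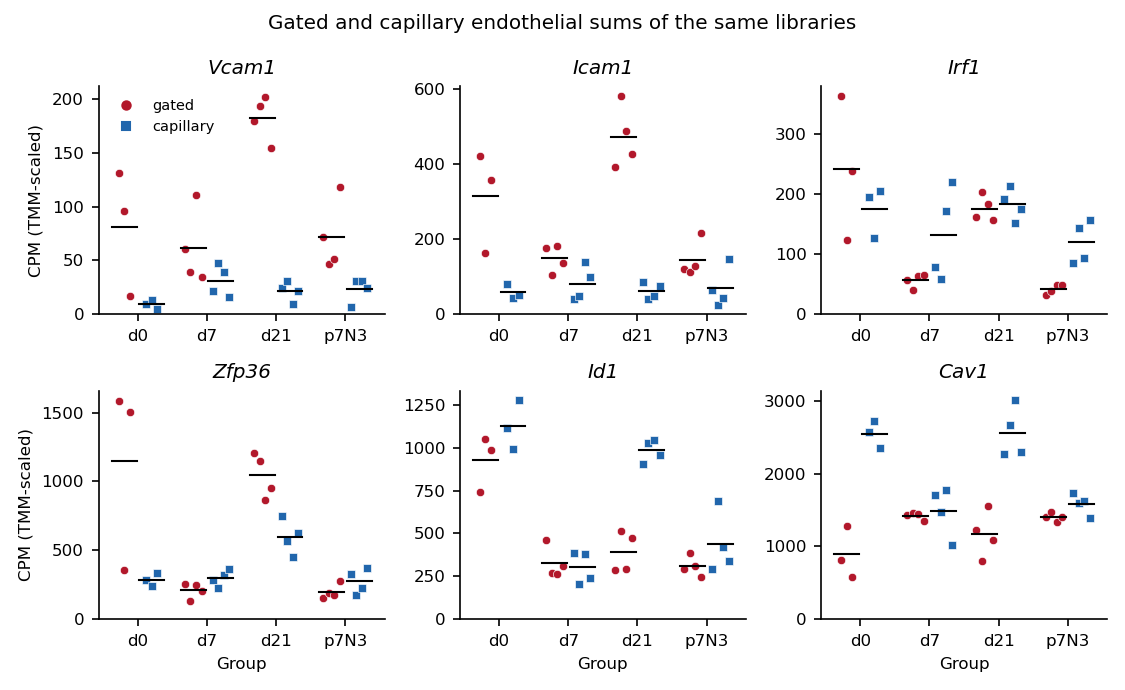
Levels of 6 genes in gated (red circles) and capillary (blue squares) endothelial cells of the same libraries, in TMM-scaled CPM on linear axes from 0, with group means as lines (d0, n = 3 a class; d7, d21 and p7N3, n = 4 a class). From d7 to d21 the mean of Vcam1 goes from 61.4 to 182 CPM in gated cells and from 30.9 to 21.6 CPM in capillary cells, while that of Id1 goes from 326 to 392 CPM and from 303 to 985 CPM.

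Finally, the gated cells held most of the transcripts of Sele at days 3, 7 and 21, of Vwf at days 7 and 21, and of Esm1 at day 7. They carried 4.81% ± 1.83 of all transcripts in the day 7 libraries and 4.29% ± 0.803 at day 21 (SD, n = 4 each). At day 7, 88.8% ± 5.21 of Sele transcripts, 64.1% ± 10.9 of Vwf and 69.6% ± 11.3 of Esm1 lay in them, and at day 21 84.3% ± 14.7, 68.2% ± 9.31 and 21.6% ± 26.6. Before day 7 these shares were lower than at day 7. At day 3 they were 69.4% ± 4.68 for Sele, 36.5% ± 14.9 for Vwf and 31% ± 34.3 for Esm1 (n = 3 each). At day 0 the share of Vwf was 19.8% ± 7.79 (n = 4). Of the 19 Sele transcripts of day 0, 14 lay in gated cells, but the mean share over 3 libraries was 33.3% ± 57.7. At day 0 capillary cells held 398 of the 625 Vwf transcripts. Capillary cells of the 19 libraries held a single transcript of Sele in all. The share of Icam1 was 17.0% ± 4.91 at day 7 and 34.4% ± 5.25 at day 21, and that of Csf3 30.5% ± 14.8 and 79.5% ± 12.5. By contrast, Il6 (8.10% ± 5.29 and 9.14% ± 4.90) and Vcam1 (3.51% ± 1.52 and 9.31% ± 1.63) came mostly from other cells. Of Angpt2, 25.9% ± 8.29 lay in gated cells at day 7 and 47.3% ± 7.47 with p7N3.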

How the data were processed

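Single-cell RNA-seq libraries were analysed from the unnormalised UMI counts per gene and cell that the authors deposited. By the study's methods these came from Cell Ranger on mm10, and the labels of 15 libraries list GRCh38 although their genes are mouse genes. The deposited counts held 27998 genes, and the matrix of day 0 replicate 1 held all 737280 barcodes. No per-sample column was left unused.

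Cells were chosen by the thresholds given in the results. Doublets were not removed, and leaving out the top 3.9% of Scrublet scores per library, the multiplet share in the labels, was an alternative. UMIs of gated cells were summed per library with at least 10 cells (18 of 19 libraries). Genes were tested with edgeR (4.0.16, TMM, filterByExpr, robust quasi-likelihood, 5 groups in 1 fit) and Benjamini-Hochberg adjustment at 0.05. CPM of single genes and of the interaction are TMM-scaled, while CPM in clusters, gate genes and marker sums are plain. A fold against a group without UMIs was computed against 3 UMIs over the group. The interaction used 15 libraries that had at least 10 cells of each class, with the library as a block. DESeq2 (1.42.0) and RLE factors were alternatives.

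Gated cells were clustered with scanpy (1.11.5, 2000 variable genes, 20 components, 15 neighbours, Leiden resolution 0.5). A cluster's leading genes had at least 50 CPM and the largest fold over the other gated cells, with 10 CPM added to both levels. Cells with under 2000 UMIs were left out of thinned shares. Exact permutation tests went over every split of the libraries, with numpy (2.4.6) in Python (3.11.15). Promoters came from RefSeq (GRCm38.p6) and were matched by symbol.

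Genes are named by list (up to 4 called members with the largest change and at least 10 CPM), by the 5 largest rises and falls, or from a set of expected endothelial genes. The others named were chosen after their values were seen. The members and lists were chosen with earlier results of these data known. On simulated counts with 200 genes changed 2-fold, edgeR recovered 52.0% for day 21 against day 7, with 1.89% of its calls false, and 9.5% to 15% for the comparisons with day 0, with 8.33% to 21.1% false.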

Additional observations from a re-analysis of the deposited data

Results flagged for a closer look

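In 4 cases of the p7N3 group and 5 of the others, 1 library lay far from the rest of its group by Dixon's criterion. This was 9 of 248 groups of 4 libraries, and chance alone gives such a flag in about 1 of 20 groups. With p7N3, replicate 4 had 185.7 CPM of Atf3 against 82.2 to 85.0 in the others, 215.9 CPM of Icam1 against 113 to 129, and 399.4 CPM of Mcam against 419 to 423, and replicate 1 had 6211 CPM of Vim against 5330 to 5343. At day 21, replicate 2 had 281.2 CPM of Col18a1 against 480 to 514 and 47.39 CPM of Mest against 82.4 to 87.8, and replicate 3 had 354.5 CPM of Cav2 against 258 to 263. At day 7, replicate 3 had 1945 CPM of Col4a1 against 2157 to 2190, and replicate 4 had 75.25 CPM of Il3ra against 60.2 to 61.6.

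The response of gated cells differed from that of capillary cells of the same libraries by the interaction test for these genes. A change in which cells fall into each class cannot be told apart from such a response. From day 0 to day 7 the log2 difference in response was −2.377 for Zfp36, −2.493 for Nfkbiz, −2.088 for Ier3, −2.049 for Atf3 and −1.548 for Irf1, and it was 2.032 for Eng, 1.512 for Cav1 and 1.908 for Col4a1. From day 7 to day 21 it was 2.027 for Vcam1, 1.962 for Icam1, 1.924 for Nfkbiz, 1.058 for Irf1 and 1.061 for Il6st, and it was −1.48 for Id1, −1.382 for Id3, −1.12 for Cav1 and −1.051 for Cav2.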

How the results depend on the processing

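Of 2772 alternative values of 126 named gene results, 2482 kept their direction and their side of the threshold, 260 lost and 25 gained the call, and 5 changed sign. The direction changed for Thbd at day 21 against day 0 with the gate on thinned cells (0.12), for Mki67 at day 21 against day 7 with the gate on thinned cells (0.041) and in cells with Selp or Ackr1 (0.26), and for Cd47 with p7N3 without the top Scrublet scores (0.0039) and without p7N3 replicate 1 (0.010, the highest of −0.0531 to 0.010 over the libraries left out). The difference in cell cycle share between p7N3 and day 7 was −0.116 points when cells were thinned to 1500 UMIs. The call of Csf3 at day 21 against day 7 was lost in 5 alternatives, among them 2 groups only (edgeR adjusted p = 0.0699), while Sele passed in 9, among them 2 groups only (edgeR adjusted p = 0.0056). The causes were not tested.

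Counts of called genes moved by over 1.5 times in 73 of 178 alternatives. At day 3 against day 0 they were 506 with the gate on thinned cells, 778 with Ptprc and Pdgfra at 0 and 534 in cells with Selp or Ackr1. At day 7 against day 0 these 3 settings gave 380, 734 and 299, a gate margin of 3 UMIs gave 814 and leaving out clusters 7 and 8 gave 506. At day 21 against day 0 they gave 135, 221 and 57, RLE factors gave 288, 2 groups only 181 and leaving out clusters 7 and 8 gave 182. At day 21 against day 7 there were 891 calls with replicates 1 to 3 only, 716 without day 21 replicates 1 and 2 and 943 in cells with Selp or Ackr1. For p7N3 there were 1 with DESeq2, 3 without the filter on low counts, 3 with 2 groups only, 2 with replicates 1 to 3 and 4 without clusters 7 and 8. The share of gated cells at day 3 was 1.02% with the gate on thinned cells.

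The interaction from day 0 to day 7 gave 143 calls with RLE factors, 657 without the filter on low counts, 174 with replicates 1 to 3, 195 at up to 10% of mitochondrial UMIs, 98 with the gate on thinned cells, 176 with Ptprc and Pdgfra at 0, 183 without the top Scrublet scores and 154 with a margin of 3 UMIs. From day 0 to day 21 it gave 15 with RLE factors, 162 without the filter, 28 with replicates 1 to 3, and 26 both with the gate on thinned cells and with the margin. For p7N3 it gave 11 without the filter, 2 without the library block, 4 with replicates 1 to 3, 5 with Ptprc and Pdgfra at 0, and 0 at up to 10% of mitochondrial UMIs, with the gate on thinned cells, without the top Scrublet scores and with at least 20 cells. From day 7 to day 21 it gave 328 without the filter, and 20 both with at least 20 cells and without day 21 replicates 1 and 2.

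Leaving out 1 library at a time gave between 1111 and 1789 calls at day 3, between 814 and 1245 at day 7 and between 275 and 546 at day 21 against day 0, 910 to 1345 at day 21 against day 7, and 0 to 1 for p7N3, where the 1 came without day 7 replicate 4. For the interaction it gave 99 to 188 from day 0 to day 7, 20 to 42 from day 0 to day 21, 0 to 4 for p7N3 and 59 to 201 from day 7 to day 21. The differences in cell cycle share ranged from 34.6 to 54.2, 21.6 to 30.7, 6.03 to 15.1 and 3.50 to 7.97 points.

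The replicate numbers did not pair the samples, as deviations of same-numbered libraries correlated by −0.22 to 0.13. With the replicate block edgeR called 1547, 1200 and 456 genes at days 3, 7 and 21 against day 0, 1172 at day 21 against day 7, and 0 for p7N3. Replicates within a group differed by more than sampling noise, with a lowest chi-square per degree of freedom of 2.33.

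With at least 20 cells no day 0 library was left, and the interaction could not be fitted for day 3, so these give no value. The thinned gate, the cells with Selp or Ackr1 and those outside clusters 7 and 8 left 1 day 0 library, which is assumed to vary like the other groups. The leaving out of day 21 replicates 1 and 2, of clusters 7 and 8, and of cells without Selp or Ackr1, and the interaction from day 7 to day 21, were chosen after seeing the data. The 34 gated cells of day 0 limit every comparison with it.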
